A study of Mus musculus with 18 samples.

Results

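Trim10, Trim58, Ctse, Hemgn, Fam46c, Fhdc1, Sec14l2, Rab3il1 and Btnl10 are 9 genes, of 21967 in the count table, that were chosen by name as genes of late erythroblasts that appear at the CFU-E stage. The libraries and thresholds behind the choice are not stated. Since the label names the CFU-E stage, the choice was taken to rest on the step from PreCFU-E to CFU-E in these same libraries. Values of that step for these genes are therefore given as a description and without a test. All 9 names were found as rows of the table, where Fam46c is the older name of Tent5c. RNA was measured in 18 libraries, 1 for each of 2 sorted cell types from 9 mice, with 3 mice a genotype. Among them, 7 of the 9 genes were higher in every CFU-E library than in any PreCFU-E library of the same genotype. Trim58 and Fam46c were not. The same order held for 16.9% (FL/FL), 15.3% (KO/FL) and 10.7% (Lepr-Cre) of the 10732 genes tested, and nothing is read from the difference. Of the 7, Ctse and Hemgn were already expressed in PreCFU-E, so the label of genes that appear at CFU-E did not describe them.

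The study varied Scf, the gene of stem cell factor, which the table lists as Kitl and whose protein is the ligand of the receptor c-Kit. The Scf FL/FL mice carried 2 floxed copies, the Scf KO/FL mice 1 null and 1 floxed copy, and the Scf KO/FL;Lepr-Cre mice (Lepr-Cre below) the same pair of alleles together with Cre recombinase expressed from the leptin receptor gene. Leptin receptor is a marker of perivascular stromal cells of the bone marrow, so the floxed copy is deleted in those cells and not in the sorted blood progenitors. In each genotype mice A and C were male and mouse B was female. The labels used here state no age. Every mouse gave both cell types, which were enriched with c-Kit beads from bone marrow and sorted without lineage markers, Ter119 among them.

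PreCFU-E and CFU-E are successive erythroid progenitors. PreCFU-E have CD150 on their surface and CFU-E have lost it, and CFU-E then become proerythroblasts and haemoglobin-filled erythroblasts that expel their nucleus. That later programme is switched on largely by the transcription factors GATA1, TAL1 and KLF1, and c-Kit signalling sustains the progenitors before it. The genes described here encode very different proteins: ubiquitin ligases of the TRIM family (Trim10, Trim58), a nuclear regulator of haematopoiesis (Hemgn), a poly(A) polymerase (Fam46c), an aspartic protease (Ctse), an actin-assembling formin (Fhdc1), an exchange factor for RAB proteins of vesicle traffic (Rab3il1), a lipid-binding protein (Sec14l2) and a butyrophilin-like membrane protein (Btnl10).

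The upstream sequences of these genes were read because several of the genes moved together, and 6 of them are shown. RefSeq promoters (GRCm38.p6) were matched by symbol for 8 of the 9 genes. Each line is the 250 bases before the transcription start, 5′ to 3′ on the strand of the gene. Capitals mark matches to the GATA letters AGATAA or its variants AGATAG and TGATAA as well as TGATAG, or to the NF-E2-like letters TGANTCA, on either strand. Trim10, Hemgn, Rab3il1 and Btnl10 are shown as genes with a GATA match and a large or clear step to CFU-E, Sec14l2 as a gene with a large step and no match, and Trim58 as a gene with a match and no step upward.
Trim10: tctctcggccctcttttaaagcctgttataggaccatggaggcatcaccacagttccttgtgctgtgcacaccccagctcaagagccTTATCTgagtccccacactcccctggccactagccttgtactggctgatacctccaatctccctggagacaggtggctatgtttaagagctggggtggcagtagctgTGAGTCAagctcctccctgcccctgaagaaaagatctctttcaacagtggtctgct
Hemgn: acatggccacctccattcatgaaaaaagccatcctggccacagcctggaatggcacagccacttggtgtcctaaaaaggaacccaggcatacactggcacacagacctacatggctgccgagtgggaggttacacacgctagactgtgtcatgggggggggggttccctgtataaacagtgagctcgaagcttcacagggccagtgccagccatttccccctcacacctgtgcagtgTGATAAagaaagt
Rab3il1: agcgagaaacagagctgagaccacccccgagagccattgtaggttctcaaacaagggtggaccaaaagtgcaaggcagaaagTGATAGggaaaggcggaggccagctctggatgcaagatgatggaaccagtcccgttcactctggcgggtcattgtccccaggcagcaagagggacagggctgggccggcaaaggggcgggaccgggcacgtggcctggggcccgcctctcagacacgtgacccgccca
Btnl10: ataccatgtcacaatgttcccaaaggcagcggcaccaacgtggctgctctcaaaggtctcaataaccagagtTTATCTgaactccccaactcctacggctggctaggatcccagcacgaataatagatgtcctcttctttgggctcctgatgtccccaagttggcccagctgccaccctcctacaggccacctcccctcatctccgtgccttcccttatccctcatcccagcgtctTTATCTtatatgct
Sec14l2: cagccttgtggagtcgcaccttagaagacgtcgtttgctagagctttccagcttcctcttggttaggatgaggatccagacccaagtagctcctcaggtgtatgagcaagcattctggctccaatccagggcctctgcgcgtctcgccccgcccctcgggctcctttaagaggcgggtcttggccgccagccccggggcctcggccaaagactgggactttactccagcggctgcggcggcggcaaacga
Trim58: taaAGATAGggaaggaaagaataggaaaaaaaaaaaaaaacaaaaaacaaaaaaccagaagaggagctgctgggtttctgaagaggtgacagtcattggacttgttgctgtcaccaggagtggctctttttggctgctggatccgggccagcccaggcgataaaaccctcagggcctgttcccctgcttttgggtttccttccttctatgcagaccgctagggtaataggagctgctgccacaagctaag
These windows are chr17:36869324-36869573 on the plus strand for Trim10, chr4:46404184-46404433 on the minus strand for Hemgn, chr19:10017944-10018193 on the plus strand for Rab3il1, chr11:58917658-58917907 on the plus strand for Btnl10, chr11:4118730-4118979 on the minus strand for Sec14l2 and chr11:58640215-58640464 on the plus strand for Trim58.

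GATA letters stood in 6 of the 8 windows, those of Trim10, Trim58, Hemgn, Fhdc1, Rab3il1 and Btnl10, against 26.5% of 32851 RefSeq promoters of the same length. Btnl10 had 2 matches, 178 and 14 bases upstream of the start. The matches of Hemgn and Fhdc1 lay 13 and 8 bases upstream, and that of Trim58 at 247 bases, near the far end. CACCC-like letters (CCNCNCCC) stood in 5 of the 8 windows, against 45.9% of all promoters. The NF-E2-like letters stood only in the window of Trim10 among these 8 genes, 56 bases upstream, against 6.75% of all promoters. This motif is nearly its own reverse complement, so 1 place matched on both strands. These are letter matches and not measured binding.

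**Figure D1:**
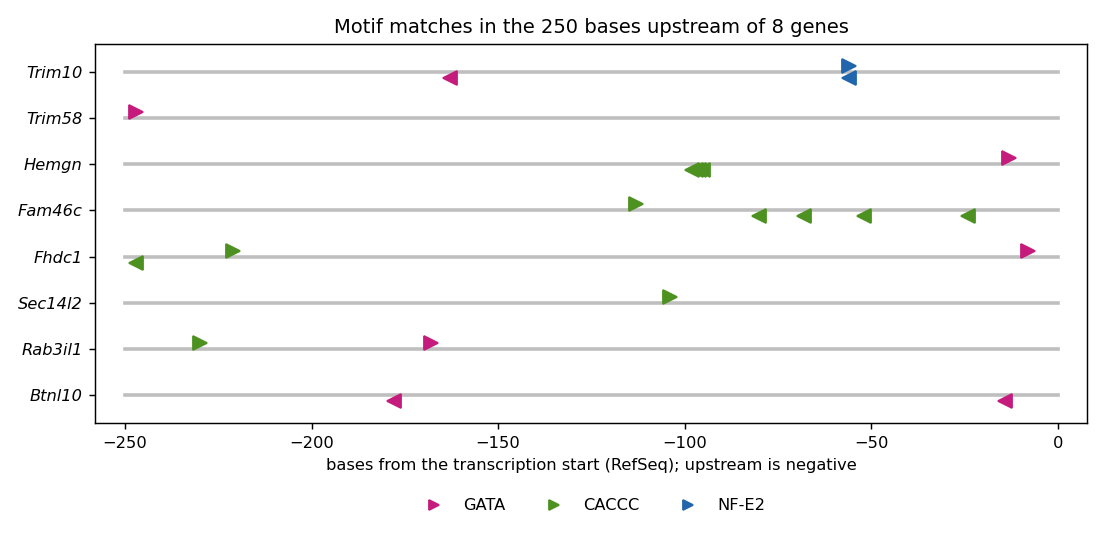
Matches to GATA, CACCC-like and NF-E2-like letters in the 250 bases upstream of the RefSeq start of 8 genes. The horizontal axis is the distance in bases from the start, and arrows pointing right or left mark the plus or minus strand relative to the gene. A GATA match is seen in 6 of the 8 genes, and Fam46c and Sec14l2 have CACCC-like matches only.

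Positions from GENCODE M21 on GRCm38 place Trim10 at chr17:36869574-36877833, Trim58 at chr11:58640465-58652404, Ctse at chr1:131638306-131675505, Rab3il1 at chr19:10001669-10038380 and Btnl10 at chr11:58917908-58927158, all on the plus strand. Hemgn lies at chr4:46393989-46413506, Fam46c at chr3:100451628-100489324, Fhdc1 at chr3:84442198-84480429 and Sec14l2 at chr11:4097039-4123415, all on the minus strand. Trim58 and Btnl10 are near each other on the same chromosome. Sec14l2 overlaps the pseudogene Gm11955 on the opposite strand, and no source used here gives the strand setting of the counting, so reads of the pair cannot be told apart with certainty.

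Library totals ranged from 3541066 to 9389122 counts, and 10782 to 13536 genes were detected. Levels are given as counts-per-million (CPM), with library totals adjusted by TMM factors, and 3 counts, the most that a 0 allows, correspond to 0.320 to 0.847 CPM. The CFU-E library of Lepr-Cre mouse B had the fewest genes detected and the CFU-E library of KO/FL mouse A the most. Kitl, the targeted gene, had 1 count in the KO/FL PreCFU-E, 1 in the KO/FL CFU-E and 0 in the other groups. The stromal cells in which it is deleted were not sorted, so the deletion cannot be checked here. Slamf1, which encodes CD150, averaged 4.16 to 10.1 CPM in the PreCFU-E groups and 0.0784 to 0.701 CPM in the CFU-E groups, the direction of the CD150 gate. Markers of other cells were low: the summed level of 9 neutrophil and monocyte markers was at most 5.05 CPM in any library, of 3 stromal markers at most 2.24 CPM, of 8 macrophage markers at most 6.53 CPM, of 6 megakaryocyte markers at most 12.5 CPM and of 3 B cell markers at most 1.51 CPM in any PreCFU-E library. In CFU-E the 3 B cell markers summed to 0.353 to 2.52 CPM in FL/FL, 0.143 to 3.73 in KO/FL and 9.33, 6.91 and 1.31 CPM in Lepr-Cre mice A, B and C. Cd79a was at 0 in the FL/FL CFU-E, and none of the 3 was at 0 in all libraries of the other CFU-E groups.

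The ubiquitin ligase pair split. Trim10, a TRIM protein needed for terminal erythroid differentiation, had 2.27, 2.96 and 3.04 CPM in the FL/FL PreCFU-E of mice A, B and C and 52.5, 44.9 and 49.3 CPM in their CFU-E. The FL/FL means were 2.76 ± 0.419 and 48.9 ± 3.80 CPM (SD, n = 3), a ratio of 17.7. In KO/FL the PreCFU-E had 1.66, 0.551 and 4.31 CPM and the CFU-E 33.3, 34.6 and 49.3 CPM, a ratio of 17.98. In Lepr-Cre the PreCFU-E already had 9.04, 8.07 and 15.1 CPM and the CFU-E 38.1, 51.2 and 61.3 CPM, a ratio of 4.67. The CFU-E levels of the 3 genotypes overlapped, and the PreCFU-E levels of Lepr-Cre lay above those of both other genotypes.

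Trim58, a ligase that acts on the motor protein dynein in erythroblasts, went against the label. Its FL/FL PreCFU-E had 29.3, 29.6 and 29.0 CPM and its FL/FL CFU-E 24.98, 22.8 and 19.2 CPM. Every FL/FL CFU-E library was thus below every PreCFU-E library, with means of 22.3 ± 2.93 and 29.3 ± 0.290 CPM (SD, n = 3). In KO/FL the means were 20.8 ± 4.79 in CFU-E and 19.5 ± 2.32 in PreCFU-E, and in Lepr-Cre 19.9 ± 3.48 and 20.9 ± 4.56 CPM, with overlapping libraries in both. Trim58 was thus expressed in both cell types and was not higher in CFU-E beyond its spread in any genotype.

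Hemgn, hemogen, a nuclear protein of blood progenitors, was already abundant in PreCFU-E. Its FL/FL PreCFU-E had 89.4, 86.2 and 110.1 CPM and its CFU-E 275, 359 and 292 CPM, with means of 95.2 ± 13.003 and 309 ± 44.1 CPM (SD, n = 3) and a ratio of 3.24. The ratio was 3.05 in KO/FL and 2.32 in Lepr-Cre. Fam46c, which adds adenines to messenger RNA tails, had 20.3, 13.7 and 13.4 CPM in FL/FL PreCFU-E and 19.4, 25.4 and 21.8 CPM in CFU-E. Its 2 cell types overlapped in every genotype, and the ratios of the means were 1.41, 1.39 and 1.59 in FL/FL, KO/FL and Lepr-Cre.

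Ctse, the protease cathepsin E, was the most abundant of the 9 genes in FL/FL. Its FL/FL PreCFU-E had 183, 144 and 195 CPM and its CFU-E 581, 629 and 616 CPM, with means of 174 ± 26.7 and 609 ± 24.7 CPM (SD, n = 3). The ratio of CFU-E to PreCFU-E was 3.50 in FL/FL, 3.34 in KO/FL and 1.98 in Lepr-Cre. Ctse and Hemgn were thus expressed genes in PreCFU-E that stood higher in CFU-E, rather than genes that first appeared there.

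Fhdc1, a formin that acts on actin and microtubules, came closest to appearing at CFU-E. In PreCFU-E it had 6 counts over the 3 FL/FL libraries, 10 over the KO/FL and 7 over the Lepr-Cre libraries, and 5 of the 9 libraries had 0 counts. In CFU-E it had 35.0, 37.9 and 21.3 CPM in FL/FL, 9.58, 21.2 and 9.89 CPM in KO/FL and 5.08, 0.901 and 4.38 CPM in Lepr-Cre. The CFU-E libraries of the 3 genotypes did not overlap, though the lowest of FL/FL and the highest of KO/FL, at 21.3 and 21.2 CPM, nearly met. The FL/FL ratio of 152 rests on the 6 PreCFU-E counts, all in mouse A.

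Rab3il1, an exchange factor for RAB3A and RAB8, was also near 0 before CFU-E. Its FL/FL PreCFU-E had 1.86, 0 and 1.79 CPM, its KO/FL PreCFU-E 1.11, 0 and 1.78 CPM and its Lepr-Cre PreCFU-E 6.85, 3.92 and 11.8 CPM. In CFU-E it had 34.5, 36.2 and 30.9 CPM in FL/FL, 27.4, 29.8 and 41.0 CPM in KO/FL and 27.04, 42.2 and 51.3 CPM in Lepr-Cre. The ratio of the means was 27.8, 34.0 and 5.34 in the same order.

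Sec14l2, a SEC14-like protein that binds tocopherol and other lipids, had 4.44, 2.66 and 2.76 CPM in FL/FL PreCFU-E and 104, 109 and 90.4 CPM in CFU-E. The KO/FL PreCFU-E had 8.57, 3.03 and 8.31 CPM and the Lepr-Cre PreCFU-E 25.2, 13.8 and 43.0 CPM. The ratio of CFU-E to PreCFU-E was 30.8 in FL/FL, 13.3 in KO/FL and 4.16 in Lepr-Cre. All 3 Lepr-Cre PreCFU-E libraries lay above all 6 of the other genotypes and below every CFU-E library.

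Btnl10, a member of the butyrophilin-like family of the immunoglobulin superfamily, stepped through the genotypes in PreCFU-E. It had 8.89, 8.13 and 10.1 CPM in FL/FL, 14.7, 13.1 and 18.4 CPM in KO/FL and 37.0, 33.6 and 51.6 CPM in Lepr-Cre PreCFU-E, with no overlap between the 3 genotypes. In CFU-E it had 112, 141 and 104 CPM in FL/FL, 112, 109.7 and 133 CPM in KO/FL and 129, 172 and 180.1 CPM in Lepr-Cre. The ratio of the means was 13.2, 7.69 and 3.93.

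**Figure D2:**
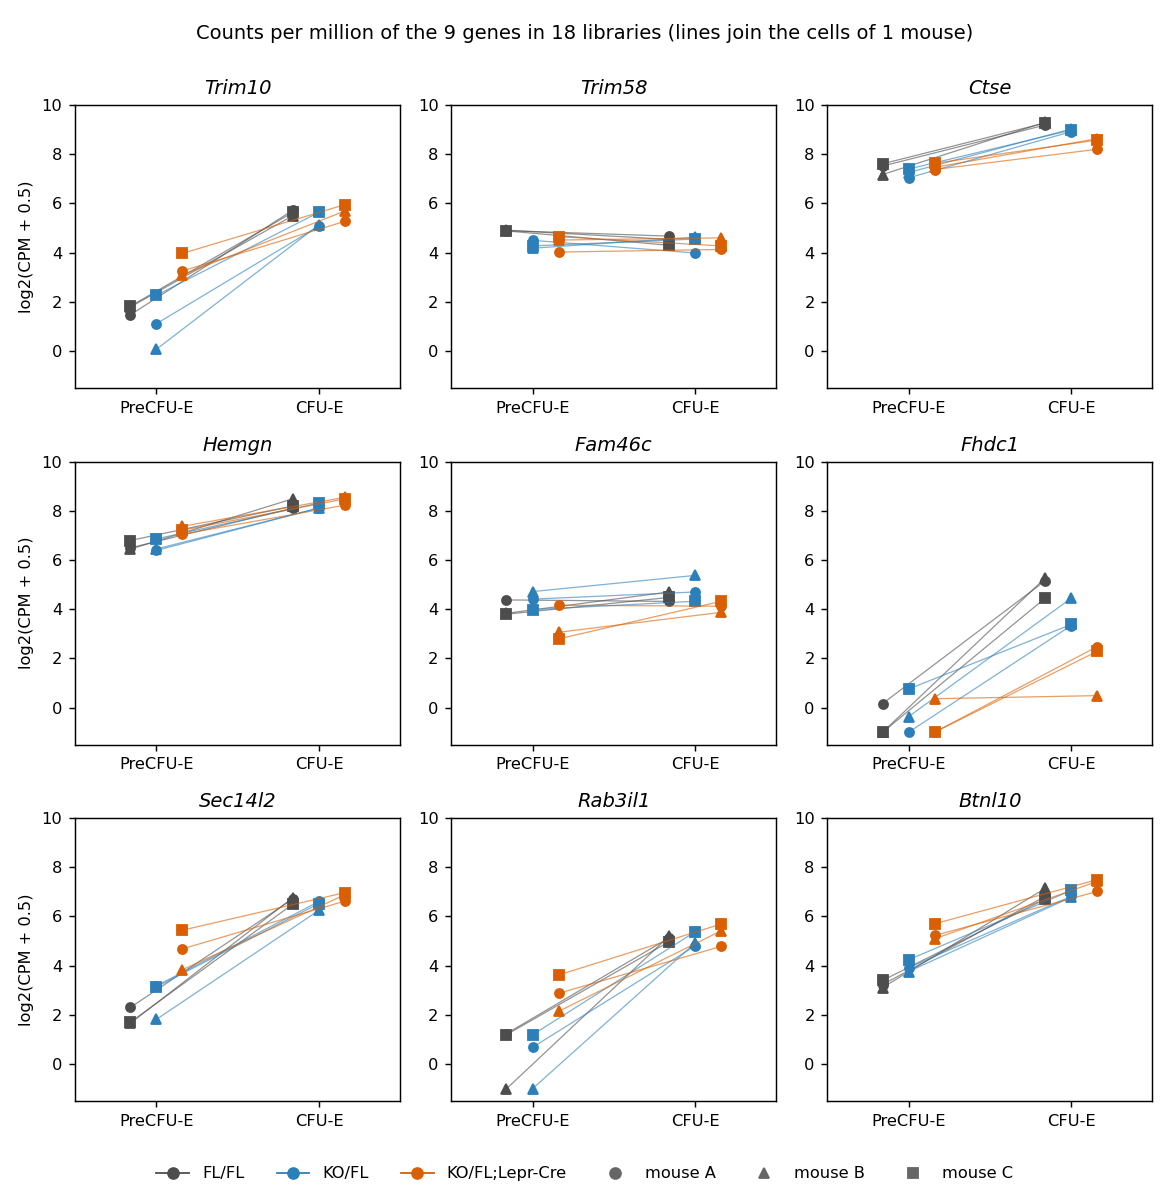
Level of each of the 9 genes in the 18 libraries, as log2(CPM + 0.5), in PreCFU-E and CFU-E. Colours are the 3 genotypes, marker shapes the mice A, B and C of each genotype, and each line joins the 2 cell types of 1 mouse. Trim58 and Fam46c overlap between the cell types, and the other 7 genes are higher in CFU-E. The Lepr-Cre PreCFU-E points of Trim10, Sec14l2, Rab3il1 and Btnl10 sit above the other genotypes.

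In each genotype 7 of the 9 genes had every CFU-E library above every PreCFU-E library. Over all 10732 genes tested this held for 16.9% (FL/FL), 15.3% (KO/FL) and 10.7% (Lepr-Cre). Since the genes were taken to be selected on this step, nothing is read from that difference. For Fhdc1 in Lepr-Cre the order held narrowly. Its mouse B had 0.901 CPM (6 counts) in CFU-E and 0.784 CPM (7 counts) in PreCFU-E, a ratio of 1.15 at very low counts. Those 7 counts are all that Lepr-Cre PreCFU-E had for Fhdc1, so its Lepr-Cre ratio rests on them. The ratio of CFU-E to PreCFU-E was smaller in Lepr-Cre than in FL/FL for all of these 7 genes. It was also smaller than in KO/FL for all 7. Over all genes tested, fewer were called higher in CFU-E in Lepr-Cre (3%) than in FL/FL (8.99%) or KO/FL (6.89%). The share of all genes with a smaller ratio in Lepr-Cre was not counted. The smaller ratio is therefore not read as particular to these genes.

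**Figure D3:**
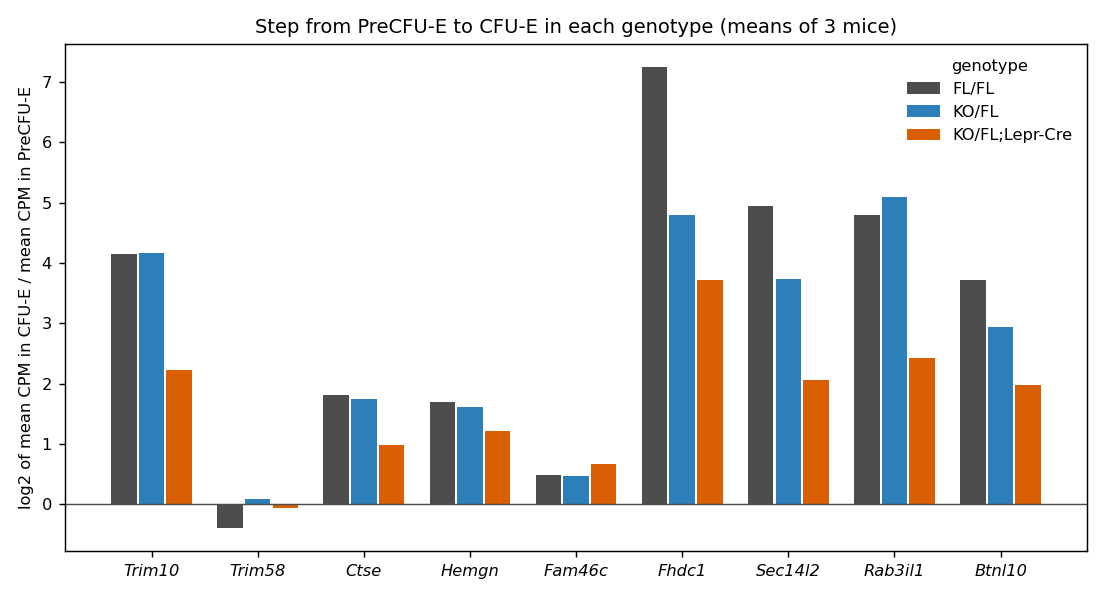
Step from PreCFU-E to CFU-E in each genotype, as the log2 ratio of the mean CPM of 3 mice, for the 9 genes. Bars start at 0, where both cell types have the same level. The Lepr-Cre value is the lowest of the 3 genotypes for 7 genes, while for Trim58 the FL/FL value is the lowest and for Fam46c the KO/FL value.

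Levels can be compared between genes only per length, and the authors' RPKM values divide by gene lengths that differ from the summed exon length for these genes, so CPM per kilobase of GENCODE exons was used. In FL/FL CFU-E the order was Ctse at 192 ± 7.78, Hemgn at 123 ± 17.6, Sec14l2 at 28.9 ± 2.73, Btnl10 at 24.7 ± 4.01, Trim10 at 21.8 ± 1.69, Trim58 at 10.2 ± 1.34, Fhdc1 at 5.01 ± 1.41, Rab3il1 at 4.83 ± 0.385 and Fam46c at 3.64 ± 0.499 CPM per kilobase (SD, n = 3). The libraries of Sec14l2 and Btnl10, of Btnl10 and Trim10, and of Fhdc1 and Rab3il1 overlapped. Within every library Sec14l2 stood above Btnl10. The order of Btnl10 and Trim10, and of Fhdc1 and Rab3il1, changed between libraries, so these neighbours are not separated. In Lepr-Cre CFU-E Hemgn, at 137 ± 15.6, had a higher mean than Ctse, at 112 ± 17.4 CPM per kilobase. Their ranges overlapped, but within each library Hemgn was higher: 119 against 92.6 in mouse A, 149 against 125 in B and 142 against 120 in C. In FL/FL PreCFU-E the order was headed by Ctse, Hemgn and Trim58, at 54.8 ± 8.42, 37.9 ± 5.18 and 13.4 ± 0.132 CPM per kilobase, and Fhdc1 was last.

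The genotype comparisons ask whether loss of stromal Scf changed these genes within a cell type, and were tested on all genes with edgeR's quasi-likelihood test and Benjamini-Hochberg adjustment, with a threshold of 0.05. Sorted cells were measured in bulk, so fewer cells of a kind and less RNA per cell cannot be told apart. The libraries taken to be behind the choice of genes are also libraries of these comparisons. The rise of Sec14l2 in Lepr-Cre PreCFU-E was among the results known when the genes were chosen. These tests are therefore not independent of the choice.

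In PreCFU-E, Trim10, Hemgn, Sec14l2 and Btnl10 were higher in Lepr-Cre than in FL/FL, and none of the 8 genes tested was lower. Over all 10309 genes tested, 2.89% were higher and 3.24% lower. The count of 4 includes Sec14l2, whose rise was known when the genes were chosen, so nothing is read from its excess. The log2 fold change was 3.03 (SE 0.444) for Sec14l2, from 3.29 ± 1.002 to 27.3 ± 14.7 CPM (SD, n = 3). Its adjusted p of 0.000178 is a description, because it tests a rise that was already known. Btnl10 rose by 2.17 on the log2 scale (SE 0.254, adjusted p = 5.7e-06), from 9.03 ± 0.981 to 40.7 ± 9.57 CPM. Trim10 rose by 1.97 (SE 0.575, adjusted p = 0.0430), from 2.76 ± 0.419 to 10.8 ± 3.84 CPM. Hemgn rose least, by 0.64 (SE 0.142, adjusted p = 0.00716), from 95.2 ± 13.003 to 148 ± 16.3 CPM. In each of the 4 genes all 3 Lepr-Cre libraries were above all 3 FL/FL libraries.

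Rab3il1 had a log2 fold change of 2.58 (SE 0.924, adjusted p = 0.110) in the same comparison and did not pass, although its libraries did not overlap. With the replicate letter as a block it passed, at 3.01 (adjusted p = 0.00685). It also passed without the filter on low counts, at 2.57 (adjusted p = 0.0134). The other 3 tested genes did not pass: Trim58 had a log2 fold change of -0.48 (adjusted p = 0.241), Fam46c of -0.59 (adjusted p = 0.361) and Ctse of 0.05 (adjusted p = 0.883). Fhdc1 was too low in PreCFU-E to be tested.

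Against KO/FL, which carries the same alleles without Cre, the same 4 genes were higher in Lepr-Cre PreCFU-E and none was lower. Of all genes tested, 1.02% were higher and 1.16% lower. The log2 fold changes were 2.28 for Trim10 (SE 0.598, adjusted p = 0.0425), 2.07 for Sec14l2 (SE 0.428, adjusted p = 0.00992), 1.40 for Btnl10 (SE 0.248, adjusted p = 0.00199) and 0.63 for Hemgn (SE 0.143, adjusted p = 0.0160). The 2 comparisons share the Lepr-Cre libraries, so they are not separate evidence. For Sec14l2 the adjusted p is again a description of a known rise. Rab3il1, at 2.98 (adjusted p = 0.139), passed only with the replicate letter as a block (3.41, adjusted p = 0.00612) or without the filter on low counts (2.98, adjusted p = 0.00828). Fam46c, at -0.97 (adjusted p = 0.171), was lower with the block (-1.07, adjusted p = 0.0132) and without Lepr-Cre mouse A (-1.52, adjusted p = 0.0272).

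Several of these calls were lost when 1 library was left out. Calls over all genes then also fell, from 632 to between 371 and 473 against FL/FL. Against KO/FL they fell from 225 to between 92 and 218. The log2 fold change of Trim10 against FL/FL stayed between 1.64 and 2.13. Trim10 lost its call against FL/FL when any 1 of the 6 libraries was left out (adjusted p from 0.0668 to 0.226), and against KO/FL without KO/FL mouse A (0.107) or B (0.179) or without Lepr-Cre mouse A (0.0876), B (0.0764) or C (0.227). Hemgn lost its call against FL/FL without Lepr-Cre mouse B (adjusted p = 0.0552), and against KO/FL without KO/FL mouse A (0.0721) or B (0.106) or Lepr-Cre mouse B (0.116). Sec14l2 lost its call against KO/FL without KO/FL mouse B (0.0656) or Lepr-Cre mouse C (0.1004). Btnl10 kept its call in both comparisons, and Sec14l2 against FL/FL, under each of the 6 omissions. For Sec14l2 this too is a description, since its rise was known at the choice. Lepr-Cre mouse C had the highest PreCFU-E level of the 9 libraries for Trim10, Sec14l2, Rab3il1 and Btnl10, and the lowest for Fam46c, at 6.42 CPM.

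**Figure D4:**
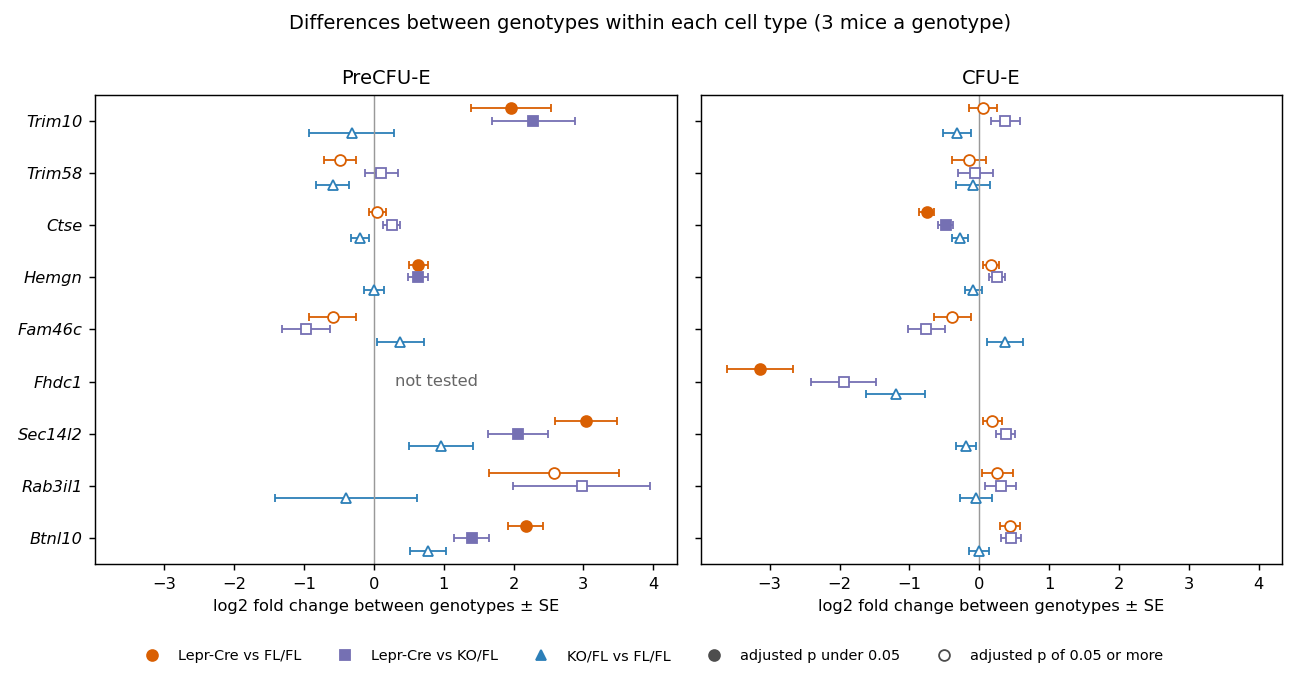
Differences between genotypes for each gene, as log2 fold change with its standard error as the horizontal bar, in PreCFU-E on the left and CFU-E on the right, from 3 mice a genotype. Filled markers have an adjusted p under 0.05 and open markers do not. Trim10, Hemgn, Sec14l2 and Btnl10 have filled markers to the right of 0 in PreCFU-E, and in CFU-E filled markers are found only for Ctse and Fhdc1, to the left of 0.

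In CFU-E other members moved, and downward. Ctse and Fhdc1 were lower in Lepr-Cre than in FL/FL, and none of the 9 genes was higher, against 2.75% lower and 2.08% higher of the 10192 genes tested. Ctse fell by 0.76 on the log2 scale (SE 0.113, adjusted p = 0.000325), from 609 ± 24.7 to 357 ± 55.2 CPM (SD, n = 3), with 294, 396 and 380.5 CPM in the 3 Lepr-Cre libraries. Fhdc1 fell by 3.14 (SE 0.470, adjusted p = 0.000941), from 31.4 ± 8.87 to 3.45 ± 2.24 CPM, and was 9.09 times as high in FL/FL. Both calls held when any 1 of the 6 libraries was left out, among them that of Lepr-Cre mouse A, which had the highest B cell marker sum.

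None of the 4 genes called higher in PreCFU-E passed in CFU-E. Sec14l2 had a log2 fold change of 0.19 against FL/FL (SE 0.139, adjusted p = 0.515), Trim10 of 0.05 (adjusted p = 0.928) and Hemgn of 0.17 (adjusted p = 0.486). Btnl10 came closest, at 0.44 (SE 0.144, adjusted p = 0.0789), and passed without the filter on low counts (adjusted p = 0.0305). It also passed with the replicate letter as a block (adjusted p = 0.0265) and without Lepr-Cre mouse A (0.57, adjusted p = 0.0366). Rab3il1, at 0.26 (adjusted p = 0.589), Trim58, at -0.15 (adjusted p = 0.811), and Fam46c, at -0.39 (adjusted p = 0.462), did not pass in CFU-E either.

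Against KO/FL, Ctse was the only one of the 9 genes called in CFU-E and was lower in Lepr-Cre, where 0.716% of all genes were lower and 0.294% higher. Its log2 fold change was -0.48 (SE 0.113, adjusted p = 0.0370), from 502 ± 19.1 CPM in KO/FL. The call was lost without KO/FL mouse A (adjusted p = 0.0657), B (0.184) or C (0.0989) or Lepr-Cre mouse A (0.143). Fhdc1, from 13.6 ± 6.64 CPM in KO/FL, had a log2 fold change of -1.94 (SE 0.465, adjusted p = 0.0606) and did not pass, while DESeq2 called it (adjusted p = 0.00187), as did edgeR without the filter on low counts (adjusted p = 2.3e-06).

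KO/FL and FL/FL did not differ by edgeR's test in any of these genes, and 0% of all genes passed in PreCFU-E and 0% in CFU-E. Before adjustment, 350 genes in PreCFU-E and 210 in CFU-E had p under 0.05, and DESeq2 called 4 and 1 genes. For Btnl10 in PreCFU-E, and for Ctse and Fhdc1 in CFU-E, the KO/FL libraries lay between those of the other genotypes without overlap. For Fhdc1 the nearest FL/FL and KO/FL libraries were almost level, at 21.3 and 21.2 CPM. How many of all genes had such an order was not counted, so nothing is read from it. The log2 fold changes of KO/FL against FL/FL were 0.77 for Btnl10 (unadjusted p = 0.00648, adjusted p = 1), -0.27 for Ctse (0.0242, adjusted p = 0.9997) and -1.20 for Fhdc1 (0.0114, adjusted p = 0.9997), none of which passed.

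Whether the step of these genes differed between genotypes was not tested, since the genes were taken to be chosen on that step. That Sec14l2, Btnl10, Trim10 and Hemgn passed in PreCFU-E and not in CFU-E, and Ctse in CFU-E and not in PreCFU-E, therefore does not show that the effect of genotype differed between the cell types.

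Other genes of the terminal erythroid programme were listed beside these values. This list and the gene lists below were chosen with earlier results of these data known, so their counts and medians are a description. Of 40 listed genes 38 were tested for the step to CFU-E, and in FL/FL 25 were higher and 1 lower. KO/FL also had 25 higher and 1 lower, and Lepr-Cre 21 and 1. Of all genes, 8.99%, 6.89% and 3% were called higher. The median log2 step of the list was 0.95, 0.85 and 0.59, against 0.0141, 0.0031 and -0.0071 over all genes. Epb42, which encodes protein 4.2 of the red cell membrane, had a log2 step of 3.14 in FL/FL (SE 0.239, adjusted p = 6.2e-11) and 2.03 in Lepr-Cre (SE 0.227, adjusted p = 8.4e-07). Rhd and Rhag, of the Rh membrane complex, had steps of 1.58 and 1.32 in FL/FL. The gene called lower was Gmpr, a reductase of guanosine monophosphate, in FL/FL (-2.75) as in KO/FL (-2.28), and Car1, a carbonic anhydrase, in Lepr-Cre (-0.38), both singled out after their values were seen.

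In Lepr-Cre PreCFU-E, 8 of 34 tested terminal erythroid genes were higher than in FL/FL and none was lower, and 4 of 34 were higher and none lower than in KO/FL. Of all genes tested, 2.89% and 1.02% were higher and 3.24% and 1.16% lower in these comparisons. The median log2 fold change of the list was 0.28 and 0.33, against 0.0035 and -0.0020 for all genes. Rhag rose by 1.10 (SE 0.148, adjusted p = 4.6e-05), Ubac1, a ubiquitin-associated protein, by 0.92 (SE 0.128, adjusted p = 5.3e-05), Cldn13, an erythroid claudin, by 1.47 (SE 0.241, adjusted p = 0.000394) and Ank1, the ankyrin of the red cell membrane, by 0.55 (SE 0.117, adjusted p = 0.00535) against FL/FL. With the replicate letter as a block the list had 14 higher and 1 lower against FL/FL, and 9 higher and none lower against KO/FL. In CFU-E, 3 of 38 were higher against FL/FL (Dmtn, Gmpr and Hba-a1) and 1 against KO/FL (Dmtn), and none was lower. Of all genes tested in CFU-E, 2.08% and 0.294% were higher and 2.75% and 0.716% lower. Without FL/FL mouse A, 0 of the list were called against FL/FL. The single call against KO/FL was lost without any 1 of the 3 KO/FL mice or without Lepr-Cre mouse B or C (0 called each), and 2 were called without Lepr-Cre mouse A. With the replicate letter as a block, 6 were higher and 2 lower against FL/FL, and 4 higher and 1 lower against KO/FL. Without the filter on low counts, 5 were higher and 1 lower against FL/FL.

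Of 12 tested erythroid transcription factors, Sox6 (log2 fold change 1.69, SE 0.294, adjusted p = 0.000753) and Tal1 (0.48, SE 0.109, adjusted p = 0.00838) were higher and Nfe2 (-0.84, SE 0.158, adjusted p = 0.00192) and Cbfa2t3 (-0.43, SE 0.129, adjusted p = 0.0466) lower in Lepr-Cre than in FL/FL PreCFU-E. Gata1, at 0.07 (adjusted p = 0.811), and Klf1, at 0.17 (adjusted p = 0.417), did not pass; both were singled out after their values were seen. Against KO/FL in PreCFU-E, Sox6 was the only one of the 12 to pass (1.38, SE 0.293, adjusted p = 0.00969). None of the 12 passed in CFU-E against either genotype. Kit, the receptor of stem cell factor and the basis of the bead enrichment, was lower in Lepr-Cre than in FL/FL by 0.88 in PreCFU-E (adjusted p = 4.6e-05) and by 0.73 in CFU-E (adjusted p = 0.00539) on the log2 scale. Against KO/FL it was lower by 0.71 (adjusted p = 0.00129) and 0.60 (adjusted p = 0.0486).

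Markers of haemoglobin-making erythroblasts moved in part with these results. The summed level of 7 such markers was 15.7 to 49.8 CPM in FL/FL, 21.6 to 29.2 in KO/FL and 36.2 to 59.1 in Lepr-Cre PreCFU-E, and 137 to 179, 151 to 191 and 168 to 247 CPM in the CFU-E of the same genotypes. Hbb-bs was at 0 in FL/FL and KO/FL PreCFU-E, Slc4a1 in FL/FL and Alas2 in KO/FL PreCFU-E. Hba-a1 averaged 17.9 ± 2.39 CPM in FL/FL CFU-E and 34.5 ± 11.01 in Lepr-Cre CFU-E (SD, n = 3). The part of these cells in the differences of Trim10, Hemgn, Sec14l2 and Btnl10 was not tested.

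Relatives of the 9 genes were listed by family. Among 14 listed formins, 6 were tested in each cell type. Inf2, a formin that also severs actin, was higher in Lepr-Cre than in FL/FL CFU-E (log2 fold change 1.55, SE 0.269, adjusted p = 0.00123), at 30.1 ± 3.08 against 10.2 ± 3.45 CPM (SD, n = 3), where Fhdc1 was lower. Fmnl1, a formin of blood cells, was lower in Lepr-Cre PreCFU-E, by 1.27 against FL/FL (adjusted p = 0.000178), at 34.8 ± 8.65 against 84.3 ± 16.1 CPM. Against KO/FL, Fmnl1 was again lower in PreCFU-E (-0.82, adjusted p = 0.0226), and Inf2 did not pass in CFU-E (0.88, adjusted p = 0.121). From PreCFU-E to CFU-E of FL/FL, 7 listed formins were tested. Inf2, Fmnl1 and Fmnl3 were lower, with log2 steps of -2.41, -4.02 and -3.67, and Daam1 was higher, with 0.91.

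Of 9 tested TRIM relatives of Trim10 and Trim58, 3 tested aspartic proteases besides Ctse in PreCFU-E and 2 in CFU-E, and the 1 tested butyrophilin relative of Btnl10, none passed between Lepr-Cre and FL/FL, or between Lepr-Cre and KO/FL, in either cell type. Fam46a, the one tested relative of Fam46c, was lower in Lepr-Cre PreCFU-E by 0.72 against FL/FL (adjusted p = 0.00396), at 63.4 ± 12.7 against 105 ± 5.01 CPM, and by 0.72 against KO/FL (adjusted p = 0.00838). Ttpal, a relative of Sec14l2 that resembles the tocopherol transfer protein, was higher in Lepr-Cre than in FL/FL CFU-E by 0.69 (adjusted p = 0.0291). Of 5 tested genes of the Rab3il1 relative and its RAB substrates, Rab8b was the one called, higher in Lepr-Cre than in FL/FL PreCFU-E by 0.38 (adjusted p = 0.0437). Against KO/FL neither Ttpal in CFU-E (adjusted p = 0.494) nor Rab8b in PreCFU-E (adjusted p = 0.261) passed.

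Over the 18 libraries the other genes were ranked by how closely they followed the mean profile of the 9 genes on the log2(CPM + 0.5) scale. Among 8856 genes with a mean of at least 5 CPM the highest Pearson r were those of Epb42 (0.99), Tnfrsf14 (0.98), Hebp1 (0.98), Rhd (0.97), Cd82 (0.97), Slc43a3 (0.97), Fads3 (0.97) and Pkhd1l1 (0.97). These r describe libraries that share the step between the cell types and the depth of each library, and carry no test. Epb42 averaged 6.59 ± 1.25, 6.88 ± 2.22 and 11.4 ± 2.65 CPM in FL/FL, KO/FL and Lepr-Cre PreCFU-E and 58.7 ± 9.48, 56.1 ± 5.75 and 46.4 ± 3.61 CPM in CFU-E (SD, n = 3). Hebp1, a haem-binding protein, averaged 28.7 ± 2.62 CPM in FL/FL PreCFU-E and 126 ± 9.66 in FL/FL CFU-E.

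The 9 genes were not alike among themselves. Against the mean profile of the other 8, r was 0.86 to 0.96 for 7 genes, 0.28 for Fam46c and -0.27 for Trim58, again over 18 libraries that share the step. The gene outside the list that followed each most closely was Phyhip for Trim10 (r = 0.97), Zfp64 for Trim58 (0.77), St3gal5 for Ctse (0.98), Nxpe2 for Hemgn (0.98), Synj1 for Fam46c (0.83), Trim2 for Fhdc1 (0.95), Erp29 for Sec14l2 (0.98), Cd82 for Rab3il1 (0.97) and Lpcat1 for Btnl10 (0.99). Trim58 and Fam46c thus had the lowest best match of the 9.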

How the data were processed

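Total RNA of sorted PreCFU-E and CFU-E was sequenced with a stranded kit for small inputs, per the labels' protocols, and the submitters' processing notes name STAR 2.5.2b, mm10 and HTSeq. The deposited count table holds raw read counts per gene, and the RPKM table deposited by the authors divides them by library total and 1 length per gene. No source used here states the strand setting or annotation. RPKM served only as an alternative scale for levels and likeness.

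The 9 genes and all gene lists were chosen with earlier results of these data known. The text names the 9 genes, Kit, Kitl, at most 4 called genes per list and comparison and at most 6 in the step between cell types, and the 8 genes most like the mean profile; exceptions are marked.

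Counts were tested with edgeR 4.0.16 in R 4.3.3: TMM, filterByExpr (minimum count 10, minimum total 15), robust quasi-likelihood test, two-sided, Benjamini-Hochberg adjustment over all tested genes. The genotype comparisons used the 9 libraries of 1 cell type, and the steps of the other gene lists used all 18, without a block. A planned interaction test was left out because the genes were taken to be chosen on the step. Alternatives were DESeq2 1.42.0, its size factors, no filter, a replicate block, and leaving out each library. The edgeR script was tested on simulated data. The chi-square statistic between replicates, per degree of freedom, was 7.75 to 18.9, above the value for a library deposited again. A mouse pairs its 2 cell types. Same-lettered mice of 2 genotypes, which also share sex, deviated together (r from 0.107 to 0.189, over 0.1 for all 3 letters) in 5 of 6 genotype comparisons, so the letter was read as a pairing there, and not in Lepr-Cre against FL/FL in CFU-E (lowest r 0.0877). One listed marker gene is not reported here.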

Additional observations from a re-analysis of the deposited data

How the results depend on the processing

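With DESeq2 size factors every one of the 9 genes kept its call or lack of a call in the 6 comparisons tested. In Lepr-Cre against KO/FL in CFU-E, 2 of the 9 genes were called without the filter and 2 by DESeq2. Terminal erythroid genes called against FL/FL and KO/FL with the replicate block numbered 15 and 9 in PreCFU-E and 8 and 5 in CFU-E, without the filter 6 and 4 in CFU-E, and by DESeq2 3 in CFU-E against KO/FL. Btnl10 was higher in Lepr-Cre than FL/FL CFU-E with the replicate block (0.44, adjusted p = 0.0265), where the letters did not pair the mice. The block changed no call of the 9 genes beyond those given.

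When 1 library was left out, 2 to 3 of the 9 genes were called in PreCFU-E against FL/FL and 1 to 4 against KO/FL. In CFU-E 2 to 3 were called against FL/FL, with Btnl10 gained without Lepr-Cre mouse A, and 0 to 1 against KO/FL. Terminal erythroid genes called were then 5 to 7 and 2 to 5 in PreCFU-E and 0 to 2 and 0 to 2 in CFU-E.

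Changes of sign were confined to log2 fold changes that passed in no setting. Leaving out 1 library, Lepr-Cre against FL/FL spanned -0.069 to 0.13 for Ctse in PreCFU-E and -0.12 to 0.21 for Trim10 in CFU-E, and Lepr-Cre against KO/FL spanned -0.022 to 0.27 in PreCFU-E and -0.24 to 0.053 in CFU-E for Trim58. KO/FL against FL/FL spanned -1.44 to 0.17 for Trim10, -0.16 to 0.11 for Hemgn and -1.49 to 0.24 for Rab3il1 in PreCFU-E, and -0.21 to 0.089 for Trim58, -0.17 to 0.035 for Hemgn, -0.24 to 0.069 for Rab3il1 and -0.10 to 0.14 for Btnl10 in CFU-E. In KO/FL against FL/FL, Hemgn in PreCFU-E was -0.0063 without the filter and -0.0040 with the replicate block, and Btnl10 in CFU-E was 0.00053 with the block. The cause of these changes was not tested.

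Over all genes, calls in PreCFU-E numbered 632 against FL/FL (1586 with the replicate block) and 225 against KO/FL (840 with the block, 394 without the filter), and in CFU-E 492 (933, 751) and 103 (280, 244, and 216 by DESeq2). The planned interaction of cell type with genotype, and its alternatives, were not run, because the genes were taken to be chosen on the step it tests. Of 108 recomputed group levels of the 9 genes, 107 moved by less than 1 SD. The depth limits Fhdc1 and Rab3il1 in PreCFU-E, at 6 to 10 and 16 to 177 counts a group.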
